A study of Mus musculus with 4 samples.

Results

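Zinc finger genes of the mouse Zfp series that lie side by side in the genome were examined for 2 histone marks, H3K4me3 (3 methyl groups on lysine 4 of histone H3) and H3K9me3 (the same on lysine 9). A protein-coding gene was a member when its symbol was Zfp followed by digits, with or without 1 letter, and another such gene lay within 100 kb of it, body to body, on the same chromosome. The rule gave 226 members among 21887 protein-coding genes. They formed 52 clusters of 2 to 23 genes on 14 chromosomes, and 22 of the clusters were pairs. The remaining 168 of the 394 Zfp genes had no such neighbour and are called solitary.

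Chromatin was taken from peritoneal macrophages of C57BL/6 mice aged 8 weeks, which had been drawn into the peritoneum with thioglycollate and left to adhere in dishes. One culture condition was lipopolysaccharide (LPS), the bacterial cell wall component sensed by Toll-like receptor 4, for 24 h, and the other was phosphate-buffered saline (PBS) for the same time. Each mark had 1 library per treatment, so the 4 libraries gave no replicate check, no test between treatments was possible, and every ratio compares libraries rather than conditions. The labels do not say how many mice a library stands for, they name no deletion or transgene, and the peaks were called without an input library.

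Most genes of this kind encode proteins with a row of C2H2 fingers, each of which can contact a few bases of DNA, and many also carry a KRAB domain. A KRAB domain recruits TRIM28, which brings the H3K9 methyltransferase SETDB1 and HP1 proteins to the bound site, often a retrotransposon. The genes multiplied by local duplication, which left them in clusters, and their own finger exons, at the 3′ end of the gene, are known to carry H3K9me3 in many cell types. In mice, deleting such clusters on chromosomes 2, 4 and 13 among others has been reported to release retrotransposons.

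Promoters of the members illustrate both the duplication and the range of sequence behind the values that follow. RefSeq promoters (build GRCm38.p6, the build mm10) were matched to 195 members, and the 250 bases before the gene start are printed 5′ to 3′, with every CpG dinucleotide in capitals. The first 5 come from chromosome 4 and are shown because they are near copies that differ in whether an H3K4me3 peak was listed. They are Zfp600 (chr4:146156577-146156826, plus strand), Zfp979 (chr4:147642509-147642758, minus strand), Zfp534 (chr4:147702632-147702881, minus strand), Zfp988 (chr4:147305354-147305603, plus strand) and Zfp985 (chr4:147553027-147553276, plus strand).
Zfp600: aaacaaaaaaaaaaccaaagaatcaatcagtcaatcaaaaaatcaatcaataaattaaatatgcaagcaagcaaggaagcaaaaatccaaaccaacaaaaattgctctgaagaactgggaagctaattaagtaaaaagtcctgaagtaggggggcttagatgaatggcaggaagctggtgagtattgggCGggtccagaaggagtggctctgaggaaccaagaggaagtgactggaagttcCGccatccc
Zfp979: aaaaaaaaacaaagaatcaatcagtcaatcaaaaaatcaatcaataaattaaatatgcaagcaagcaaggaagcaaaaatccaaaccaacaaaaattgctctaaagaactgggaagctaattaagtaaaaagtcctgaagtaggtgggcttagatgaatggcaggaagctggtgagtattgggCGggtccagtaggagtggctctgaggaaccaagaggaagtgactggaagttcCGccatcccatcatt
Zfp534: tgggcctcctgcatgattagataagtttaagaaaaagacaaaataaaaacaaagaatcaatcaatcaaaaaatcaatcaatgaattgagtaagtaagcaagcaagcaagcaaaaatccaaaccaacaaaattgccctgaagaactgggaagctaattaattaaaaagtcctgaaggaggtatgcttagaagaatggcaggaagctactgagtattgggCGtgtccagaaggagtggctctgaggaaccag
Zfp988: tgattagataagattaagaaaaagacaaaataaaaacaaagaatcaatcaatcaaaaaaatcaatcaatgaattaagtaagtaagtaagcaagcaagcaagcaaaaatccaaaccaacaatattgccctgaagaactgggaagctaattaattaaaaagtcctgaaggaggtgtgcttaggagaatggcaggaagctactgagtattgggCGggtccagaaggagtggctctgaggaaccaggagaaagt
Zfp985: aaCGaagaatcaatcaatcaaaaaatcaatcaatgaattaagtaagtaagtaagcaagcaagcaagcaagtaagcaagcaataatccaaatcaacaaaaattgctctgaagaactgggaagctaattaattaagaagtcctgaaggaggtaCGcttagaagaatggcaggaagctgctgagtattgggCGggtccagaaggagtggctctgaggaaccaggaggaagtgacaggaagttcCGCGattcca
Over the bases that could be aligned, the Zfp600 promoter was 98.4% identical to that of Zfp979, 91.2% to Zfp534, 91.1% to Zfp988 and 91.0% to Zfp985. They hold 2, 2, 1, 1 and 5 CpG in the order printed. No H3K4me3 peak was listed at Zfp600, Zfp979 or Zfp534 in either library. Zfp988 had a peak of 27 tags in LPS and none listed in PBS, and Zfp985 had 24 tags in LPS and 31 in PBS. These peaks are near the lowest count listed for H3K4me3, 17 tags in each library, so a difference in the mark between the copies is not shown. Sequence this alike also limits the values, since reads that fit several copies may be lost or split, and how they were treated is not given in the sources used here.

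A further set of promoters is shown for the range of H3K4me3. Zfp777 (chr6:48047795-48048044, minus strand) had the most H3K4me3 tags of the members with a matched promoter, Zfp846 (chr9:20581078-20581327, plus strand) the highest ratio of LPS to PBS among members with at least 100 tags over both libraries, and Zfp260 (chr7:30094826-30095075, plus strand) the lowest.
Zfp777: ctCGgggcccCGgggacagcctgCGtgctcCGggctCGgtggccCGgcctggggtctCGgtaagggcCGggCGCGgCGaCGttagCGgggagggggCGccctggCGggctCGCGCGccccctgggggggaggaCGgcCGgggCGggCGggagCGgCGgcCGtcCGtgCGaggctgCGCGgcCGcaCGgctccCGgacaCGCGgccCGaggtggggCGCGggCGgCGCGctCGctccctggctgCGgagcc
Zfp846: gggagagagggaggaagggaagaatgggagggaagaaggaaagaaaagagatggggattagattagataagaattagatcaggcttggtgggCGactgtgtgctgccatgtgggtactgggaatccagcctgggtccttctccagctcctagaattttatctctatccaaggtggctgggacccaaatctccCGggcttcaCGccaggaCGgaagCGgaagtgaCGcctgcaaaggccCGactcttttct
Zfp260: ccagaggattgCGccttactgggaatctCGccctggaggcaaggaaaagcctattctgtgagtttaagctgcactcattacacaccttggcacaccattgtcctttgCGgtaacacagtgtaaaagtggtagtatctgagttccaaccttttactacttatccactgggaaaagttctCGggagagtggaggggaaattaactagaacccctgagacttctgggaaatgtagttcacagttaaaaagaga
These hold 42, 7 and 4 CpG. The start used for Zfp777 lies 2.21 kb inside the outer end of the gene, and those of Zfp846 and Zfp260 lie 29 and 294 bases inside. For 166 of the 195 members the start lay within 1 kb of the outer end.

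For H3K4me3 the list of LPS cells held 28505 peaks from 26748289 filtered tags and that of PBS cells 31398 peaks from 29681491. For H3K9me3 there were 17369 peaks from 28586946 tags in LPS and 19279 from 27727997 in PBS. Of 11 macrophage genes, 10 had H3K4me3 at an end in both libraries. The macrophage factor gene Spi1 was listed in LPS only, with 503 tags. Whether its absence from the PBS list reflects the chromatin could not be checked without reads. Markers of other cells were marked less completely: in both libraries 2 of 7 T cell genes, 0 of 6 neutrophil genes, 1 of 5 mast cell and eosinophil genes and 2 of 8 mesothelial and fibroblast genes. Their levels differed between the libraries. The neutrophil list summed to 77 tags in LPS and 19 in PBS, with 2 genes listed in LPS only and 1 in PBS only, and the mesothelial and fibroblast list summed to 347 tags in LPS and 803 in PBS, with 4 genes listed in PBS only. Among T cell genes, Cd3e and Cd3g had no H3K4me3 listed in either library, whereas Cd4 (216 tags in LPS, 277 in PBS) and Cd3d (57 and 82) had it in both. Among mesothelial and fibroblast genes, Msln had none, whereas Wt1 (207 tags in LPS, 321 in PBS) and Col1a1 (140 and 199) had it in both. The part of other cells in the members' values was not tested.

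Most clustered Zfp genes carried H3K4me3, the mark of active and poised promoters, at a gene end. A peak within 1 kb of an end was listed in both libraries for 187 of 226 clustered genes (82.7%), against 137 of 168 solitary genes (81.5%) and 60.1% of all protein-coding genes. It was listed in LPS only for 4 members (1.26% of all genes) and in PBS only for 3 (3.14% of all genes). The remaining 32 members (14.2%) had none. Where the reading direction was known, the marked end was the start of the gene in 158 of 166 members (95.2%).

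The members without H3K4me3 listed within 1 kb of an end were not spread evenly. Chromosome 4 held 7 of its 14 members in this state, and chromosome 13 held 7 of 27. Chromosome 17 had 2 of 37, chromosome 7 had 12 of 76, and chromosomes 6, 8, 9, 15, 16 and X had 0. The state depends on the window, since a window of 2.5 kb marked more members. Near copies, several of them on chromosome 4, may also have lost reads. Of the members seen in 1 library, Zfp811 had 89 tags in LPS, with a score of 251.2, and no PBS peak within 10 kb, an absence from the list that likewise could not be checked. Zfp988 (27 tags), Zfp345 (20) and Zfp300 (17) were the others listed in LPS only. In PBS only, Zfp35 had 55 tags, with an LPS peak of 67 tags within 2.5 kb of the same end. The other 2 in PBS only were Zfp182 (50 tags) and Zfp663 (29 tags).

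H3K4me3 of the members was low and narrow for a promoter. The median member listed in both libraries held 115 LPS tags and 179 PBS tags, while the medians were 187 and 273 for solitary genes and 200 and 289 for all genes. The peaks covered a median of 1.12 kb in LPS and 1.39 kb in PBS at clustered genes, 1.47 and 1.74 kb at solitary genes, and 1.61 and 1.83 kb at all genes. Peaks covered 2 kb or more at 9.63% of the members in LPS and 15.0% in PBS, while the same held for 32.5% and 42.6% of all genes. The most tags were at Zfp777 (chromosome 6, 48017660 to 48050004), 486 in LPS and 796 in PBS. The same cluster holds Zfp746, which encodes the parkin substrate PARIS and had 291 tags in LPS and 423 in PBS.

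CpG content separated marked from unmarked promoters less sharply among the members than in the genome. Promoters of clustered genes held a median of 9 CpG in the 250 bases, solitary ones 13 and all promoters 10. Members with H3K4me3 had a median of 9 CpG and those without 7, whereas over all genes the medians were 15 and 2. Of members with fewer than 10 CpG, 84 of 106 (79.2%) were marked, against 75.5% of such solitary genes and 35.2% of such genes overall. At 10 CpG or more the shares were 92.1%, 95.3% and 93.2%.

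**Figure D1:**
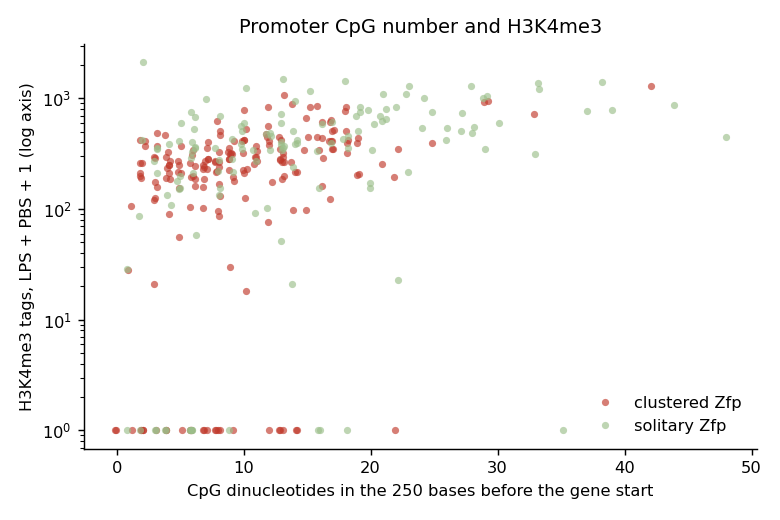
Number of CpG dinucleotides in the 250 bases before the gene start (x axis) against H3K4me3 tags at the gene end, LPS and PBS summed with 1 added (y axis, log scale), for clustered and solitary Zfp genes. Points on the bottom line have no listed peak; most clustered genes with fewer than 10 CpG lie above it.

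Short motifs were counted in the same 250 bases on both strands. The ETS letters CCGGAAG occurred in 15.9% of clustered, 20.1% of solitary and 9.15% of all promoters. The CCAAT box was in 52.3%, 44.0% and 36.5%, and the Sp letters GGGCGG in 31.3%, 53.0% and 42.7%. The letters TATAAA were in 4.62%, 7.46% and 12.4%, ACTACAA (ZNF143) in 7.18%, 5.22% and 3.41%, and GCATGCG (NRF1) in 6.15%, 5.22% and 3.79%. No motif contains another, and a match describes the sequence only.

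Between treatments the H3K4me3 of clustered Zfp genes was lower in LPS than in PBS, by more than the shift seen at all promoters. Of the filtered tags of each H3K4me3 library, 14.0% lay in peaks in LPS and 17.8% in PBS. Scaling to filtered tags does not even out this library-wide difference, and its part in the ratios was not tested. The log2 ratios of LPS over PBS tags, scaled to filtered tags, had a median of -0.51 over the 187 members (95% interval of the median -0.56 to -0.48, quartiles -0.70 and -0.36). It was -0.43 over 137 solitary genes (-0.47 to -0.39) and -0.36 over 13151 genes in all. Thus 139 of 187 clustered genes lay below the median of all promoters, against 84 of 137 solitary genes. Relative to that median the clustered genes stood at -0.14. Part of the difference went with the length called, since tags per covered kb gave -0.30 for clustered, -0.23 for solitary and -0.21 for all genes. The intervals rank genes that share clusters and peaks as if they were independent, and 180 of the 187 sets of peaks were distinct.

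Among 179 members with at least 100 tags over both libraries, 12 were at least 2-fold lower in LPS (6.70%), against 7 of 134 solitary genes and 3.65% of all genes. Of the 179, 0 were 2-fold higher, against 0.37% of all genes. With the median promoter set to 0, the order turned: 1 member (0.559%) was 2-fold lower, against 3 solitary genes (2.24%) and 1.19% of all genes. Per covered kb 0 members were.

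**Figure D2:**
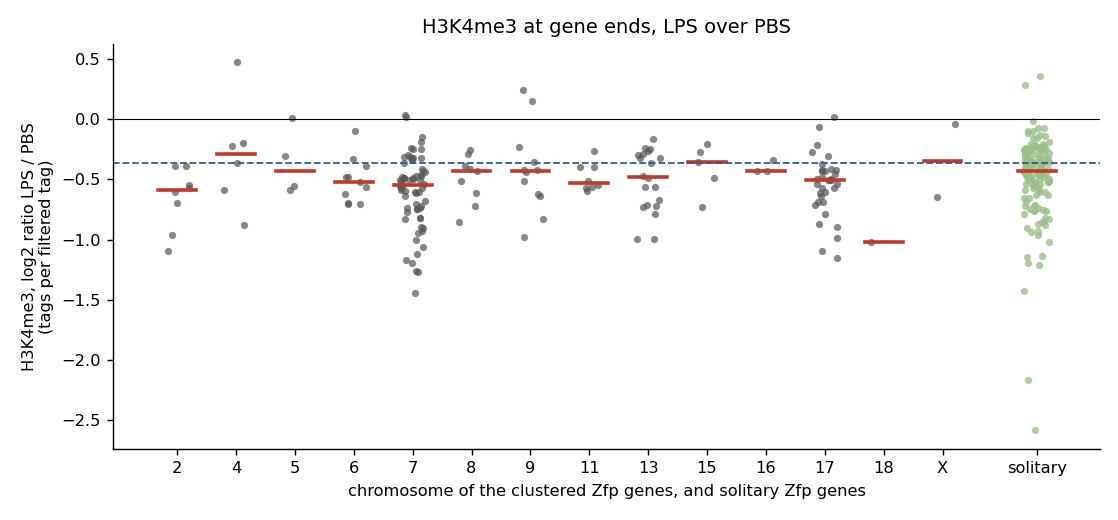
Log2 ratio of H3K4me3 tags at the gene end, LPS over PBS, for each clustered Zfp gene by chromosome and for solitary Zfp genes (points; red bars are medians, the dashed line is the median of all promoters at -0.36). Medians of chromosomes where 3 or more genes have a ratio run from -0.59 on chromosome 2 to -0.29 on chromosome 4, and most points lie below 0.

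Of the 8 lowest ratios at this tag limit, 6 were on chromosome 7, which holds 64 of the 187 members. Zfp260 (30094782 to 30107622), known from heart muscle as a transcription factor of the response to adrenergic signals, carried 46 LPS tags and 139 PBS tags, a log2 ratio of -1.45 (95% counting interval -1.96 to -0.95). In the same cluster Zfp84 had 96 tags in LPS and 257 in PBS (-1.27), and Zfp27 had 29 in LPS and 77 in PBS (-1.26). Other chromosome 7 genes among the 8 lowest were Zfp607a with 84 tags in LPS and 213 in PBS, Zfp551 with 53 and 132, and Zfp112 with 47 and 113. Zfp960 on chromosome 17 (41 tags in LPS, 101 in PBS) and Zfp442 on chromosome 2 (68 in LPS, 161 in PBS) completed the 8. In each of these 8 the LPS peaks also covered less length, and per covered kb the ratios ran from -0.57 at Zfp960 to -0.06 at Zfp112.

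Among members with at least 100 tags over both libraries, the highest ratios were near 0. Below that limit, Zfp992 had 35 tags in LPS and 28 in PBS (0.47, -0.29 to 1.24), and Zfp872 had 50 and 47 (0.24, -0.36 to 0.85). Zfp846 on chromosome 9 (20581299 to 20605404) carried 115 tags in each of the LPS and PBS libraries, which is 0.15 after scaling (-0.24 to 0.54). Its sign turned per covered kb (-0.45), because the LPS peaks covered 1.78 kb and the PBS peaks 1.17 kb. Zfp819 had 59 tags in LPS and 64 in PBS, Zfp658 had 249 and 272, Zfp760 had 84 and 92, and Zfp853 had 99 and 109. Zfp955b (126 in LPS, 146 in PBS), Zfp239 (97 and 115) and Zfp607b (423 and 520) followed, with ratios from -0.15 to -0.06. Zfp607b and Zfp607a lie in 1 cluster, yet stood at -0.15 and -1.19, and over the whole merged region Zfp607a came to -0.60.

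Several genes with a described role stood nearer the middle. Zfp568, which in mouse embryos represses a promoter of Igf2, had 183 tags in LPS and 284 in PBS (-0.48). Zfp809, which silences murine leukaemia viruses, had 99 tags in LPS and 195 in PBS (-0.83), but 0.36 per covered kb. Zfp445, which helps to keep imprints, had 108 tags in LPS and 141 in PBS (-0.23). These genes, with Zfp746, Zfp872, the near copies and some cluster neighbours given here, were chosen for their known roles or their sequence after their values had been seen.

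Near-identical promoters did not always have equal values. Zfp955a and Zfp955b share all 250 bases, yet Zfp955a had 74 tags in LPS and 163 in PBS (-0.99), and Zfp955b 126 in LPS and 146 in PBS (-0.06). Zfp943 and Zfp758 share 242 of 242 aligned bases, with 136 tags in LPS and 214 in PBS at Zfp943, and 167 in LPS and 248 in PBS at Zfp758. These values are uncertain to the extent that reads were shared between copies.

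H3K9me3, the mark of heterochromatin, lay on the bodies of fewer clustered Zfp genes in LPS than in PBS. A peak overlapped the body of 84 members in LPS (37.2%) and 106 in PBS (46.9%), against 81 and 81 of 168 solitary genes (48.2% each) and 26.6% and 24.5% of all genes. Both libraries listed H3K9me3 on 61 members, compared with 16.1% of all genes, LPS alone on 23 (10.5% of all genes) and PBS alone on 45 (8.37% of all genes). Solitary genes had 62 in both, 19 in LPS only and 19 in PBS only. In bodies of 20 to 40 kb, 49.4% of clustered genes were marked in LPS and 63.3% in PBS. Solitary genes had 53.5% and 58.1% there, and all genes 28.1% and 25.2%. At 10 to 20 kb the shares were 27.5% and 37.3% of clustered genes and 37.9% and 37.9% of solitary genes. Under 10 kb they were 21.9% in each library for clustered genes and 33.3% for solitary genes. At 40 kb or more, 76.9% and 84.6% of clustered genes were marked, beside 65.1% and 60.5% of solitary genes.

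The members seen in 1 library rested on weak peaks. The 45 PBS-only members held 54 peaks of 11 to 78 tags (median 20), 3 of them with a score of 100 or more, and 15 of the 45 had an LPS peak within 10 kb. The 23 LPS-only members held 23 peaks of 13 to 39 tags (median 17), 0 of them with such a score, and 9 had a PBS peak within 10 kb. With lists cut to equal length, the counts were 24 in LPS only and 43 in PBS only, and over all genes 11.1% and 7.498%. The LPS-only members with most tags were Zfp110 (39), Zfp786 (32), Zfp660 (29) and Zfp599 (28). In PBS only they were Zfp12 (78), Zfp729a (64), Zfp934 (64) and Zfp120 (45).

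Counted over distinct peaks, the clustered genes held 207 H3K9me3 peaks in LPS and 244 in PBS, with 8379 and 10547 tags. That is 1.68 tags per kb of body in LPS and 2.12 in PBS, against 0.340 and 0.394 on solitary genes and 0.228 and 0.200 on all genes. The log2 ratio of LPS to PBS was -0.38 for clustered genes (counting interval -0.42 to -0.33), -0.26 for solitary genes and 0.14 for all genes. The covered length was 94.8 kb in LPS and 114 kb in PBS, and per covered kb the ratio of clustered genes was -0.11. Over the 61 members in both lists the median log2 ratio was -0.12 (-0.35 to 0.07), and over 3525 such genes in all it was 0.09.

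In clustered, solitary and all genes alike, the ratio of LPS to PBS was lower in peaks that met no H3K4me3 peak of either library. Away from H3K4me3, clustered genes had 122 peaks and 3670 tags in LPS, against 166 peaks and 5300 tags in PBS (-0.57). The same ratio was -0.70 without chromosome 4, -0.55 on solitary genes and -0.19 on all genes. On H3K4me3 peaks of either library, clustered genes had 4709 tags in LPS and 5247 in PBS (-0.20), with -0.30 on chromosome 4 and 0.02 on the other chromosomes. Solitary genes had 0.04 there and all genes 0.38. Without chromosome 4, clustered genes thus stood near solitary genes on H3K4me3 peaks, while both lay below all genes. This split was chosen after the data had been seen.

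**Figure D3:**
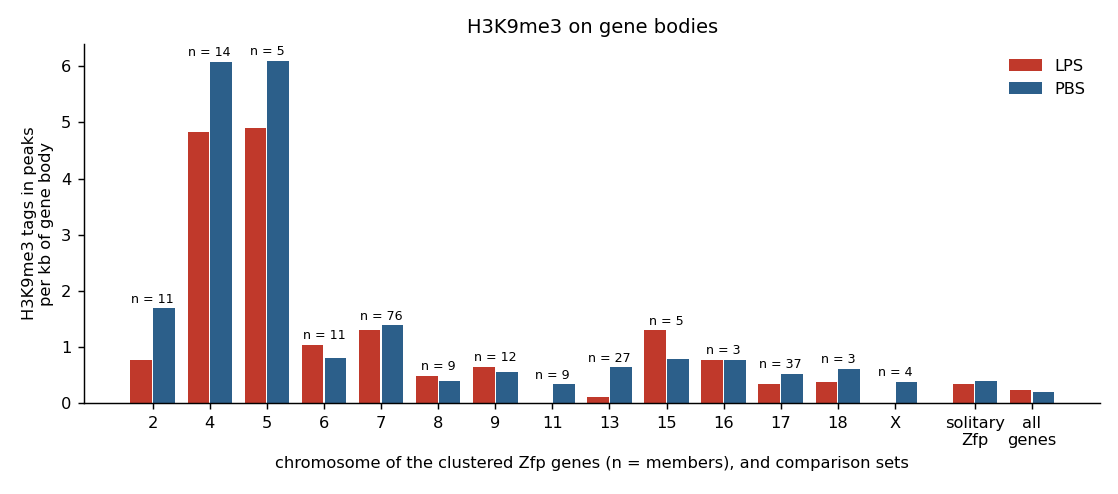
H3K9me3 tags in peaks per kb of gene body in LPS (red) and PBS (blue), for clustered Zfp genes on each chromosome (n is the number of members), solitary Zfp genes and all genes; each bar is 1 library. Chromosomes 4 and 5 stand highest, and chromosomes 11 and X have no LPS peak.

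Chromosome 4 alone held 63.2% of the members' H3K9me3 tags in LPS and 63.2% in PBS. Its 14 members had 116 peaks and 5299 tags in LPS and 124 peaks and 6664 tags in PBS, or 4.83 and 6.08 tags per kb. Without chromosome 4 the clustered genes had 0.793 tags per kb in LPS and 0.9999 in PBS, still above solitary genes, and the ratio was -0.38 as before. Zfp978 (147124882 to 147392027) held 36 peaks with 2124 tags in LPS and 38 peaks with 2618 tags in PBS. Zfp993 (146512849 to 146991471), the longest member, held 39 peaks with 1435 tags in LPS and 44 with 1967 in PBS. Per kb, Zfp992 was the densest of the 14, with 22.2 tags per kb in LPS and 21.9 in PBS.

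Of the other chromosome 4 genes, Zfp991 had 349 tags in LPS and 521 in PBS, and Zfp600 had 330 and 372. Zfp984 had 287 tags in LPS and 401 in PBS, Zfp982 had 251 and 324, and Zfp981 had 229 and 326. Zfp987 had no H3K9me3 peak in either library, and Zfp534 had none in LPS and 28 tags in PBS. The near copies printed first therefore ranged from 330 tags at Zfp600 to none listed at Zfp534 in LPS. Zfp988 had 69 tags in LPS and 75 in PBS, Zfp985 had 198 and 172, and Zfp979 had 194 and 274. The peaks of Zfp991 and Zfp988 also lay on the body of Zfp978, so their tags are included in its values. The same held for Zfp981 and Zfp993, except for a PBS peak of 34 tags on Zfp981 alone.

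H3K4me3 peaks were also listed inside chromosome 4 bodies, away from any gene end. There were 38.3 such peaks per Mb in LPS and 41.0 in PBS, against 13.1 and 12.9 in the other clustered genes, 9.17 and 11.5 in solitary genes and 8.16 and 9.68 in all genes. Of those on chromosome 4, 83.3% in LPS and 75.6% in PBS met an H3K9me3 peak, compared with 19.6% and 12.0% in the other clustered genes.

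Chromosome 13 had the lowest ratio of the chromosomes with a peak in both libraries. H3K9me3 lay on 4 of 27 members in LPS and 13 in PBS, with 58 and 357 tags, a log2 ratio of -2.67 (-3.09 to -2.26). Its largest cluster, from Zfp712 to Zfp273 (67038594 to 67827000), has 23 members, of which 3 were marked in LPS and 11 in PBS, with 43 and 259 tags. Over the whole span of the cluster, spaces between genes included, there were 8 peaks with 138 tags in LPS and 18 peaks with 337 tags in PBS. The bodies alone therefore gave a wider gap than the span did, and 0 of the LPS peaks and 1 of the PBS peaks in the span had a score of 100 or more.

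In that cluster Zfp729a had the most H3K9me3, with none listed in LPS and 64 tags in PBS, and Zfp729b beside it had 24 tags in PBS. Zfp708 had 17 tags in LPS and 37 in PBS, and was the 1 member marked in both. Zfp953 and Zfp87 were marked in LPS only, with 13 tags each. For H3K4me3 the cluster stood at a median of -0.36, with the most tags at Zfp748 (158 in LPS, 219 in PBS) and no peak listed at 6 members, Zfp458 among them.

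**Figure D4:**
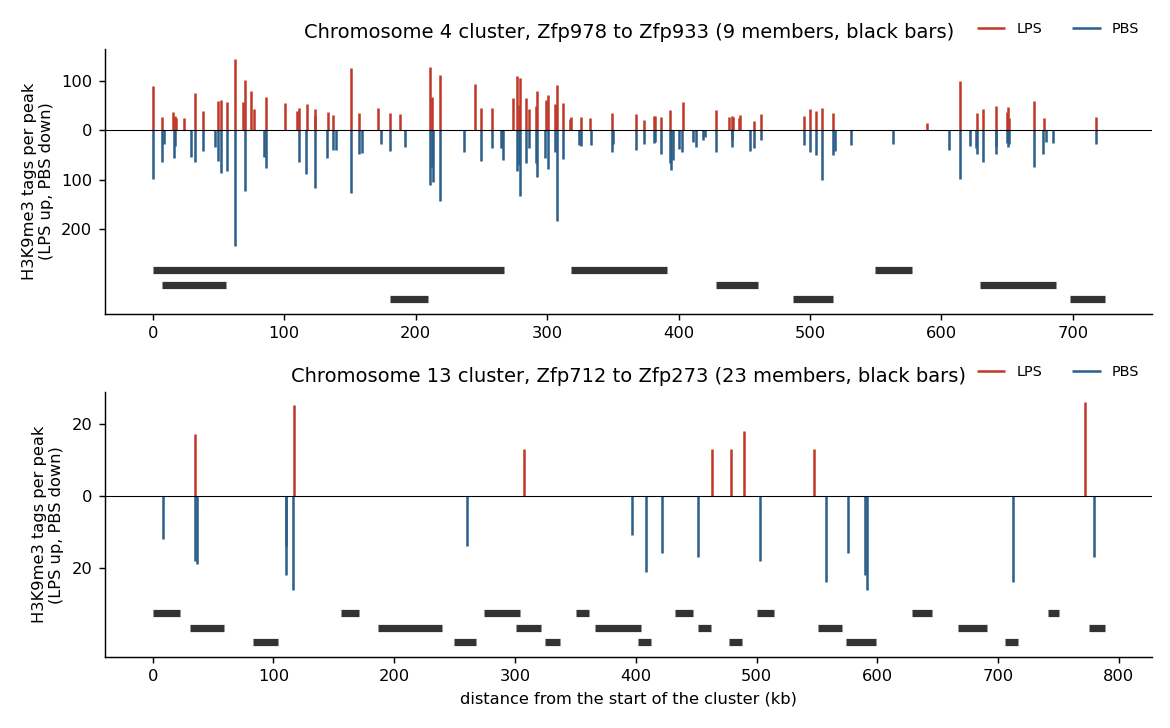
H3K9me3 peaks along the largest chromosome 4 cluster (top) and the chromosome 13 cluster (bottom), each line 1 peak with its tags, LPS upwards and PBS downwards, against distance from the start of the cluster in kb; black bars are the member genes. The chromosome 4 cluster has 86 peaks in LPS and 99 in PBS, while the chromosome 13 cluster has 8 and 18, on a smaller tag scale.

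Other chromosomes went either way. Chromosome 2 had 165 tags in LPS and 365 in PBS (-1.19), and chromosome 17 had 278 and 412 (-0.61). Chromosome 7, with 76 members, had 1575 and 1677 (-0.13), and chromosome 6 had 242 and 188 (0.32). Chromosomes 11 and X had no LPS peak, with 58 and 31 tags in PBS. On chromosome 2, Zfp442 held 39 H3K9me3 tags in LPS and 133 in PBS, beside its low H3K4me3 ratio of -1.09.

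In the chromosome 7 cluster from Zfp84 to Zfp146, with 15 members, H3K9me3 lay on 10 members in LPS and 13 in PBS, with 388 and 451 tags. Zfp84 had the most, 91 tags in LPS and 48 in PBS, and Zfp14 had none. The median H3K4me3 ratio of this cluster was -0.64, with the most tags at Zfp568 and none listed at Zfp790. In the chromosome 17 cluster from Zfp677 to Zfp943, with 13 members, 4 members were marked by H3K9me3 in LPS and 6 in PBS, with 91 and 179 tags. There Zfp943 had 18 tags in LPS and 70 in PBS, and Zfp229 had neither mark listed. Zfp52 had the most H3K4me3 of that cluster, with 180 tags in LPS and 281 in PBS.

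The H3K9me3 of a few members lay mostly in a broad peak. Zfp865 on chromosome 7 had 353 of its 367 LPS tags in a peak of 2982 bp, and its 338 PBS tags in a peak of 2840 bp. Zfp316 on chromosome 5 had 286 in LPS and 290 in PBS, in single peaks of 2461 and 2607 bp. In both libraries these peaks of Zfp865 and Zfp316 met an H3K4me3 peak of the same treatment. The median width of members' peaks was 375 bp in LPS and 364 bp in PBS. Zfp579 (chromosome 7, 4992852 to 4996101) carried 207 LPS tags and 180 PBS tags in peaks inside its body that reached within 1 kb of its H3K4me3-marked end.

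Away from H3K4me3, H3K9me3 lay towards the 3′ end of the members. Over the 195 members with a known direction, 59 of 114 such peaks (51.8%) in LPS and 87 of 156 (55.8%) in PBS lay in the last 2 of 5 equal parts of the body. On solitary genes the shares were 58.1% and 48.3%, and on all genes 41.7% and 40.8%. Without chromosome 4 the members reached 63.3% and 67.4%, whereas chromosome 4 itself had 38.9% and 39.1%. Leaving out chromosome 4 was chosen after the data had been seen. Peaks here met no H3K4me3 peak of their own treatment, and with H3K4me3 of either library the members' shares were 53.4% in LPS and 57.9% in PBS. A peak that met several bodies was counted once for each.

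**Figure D5:**
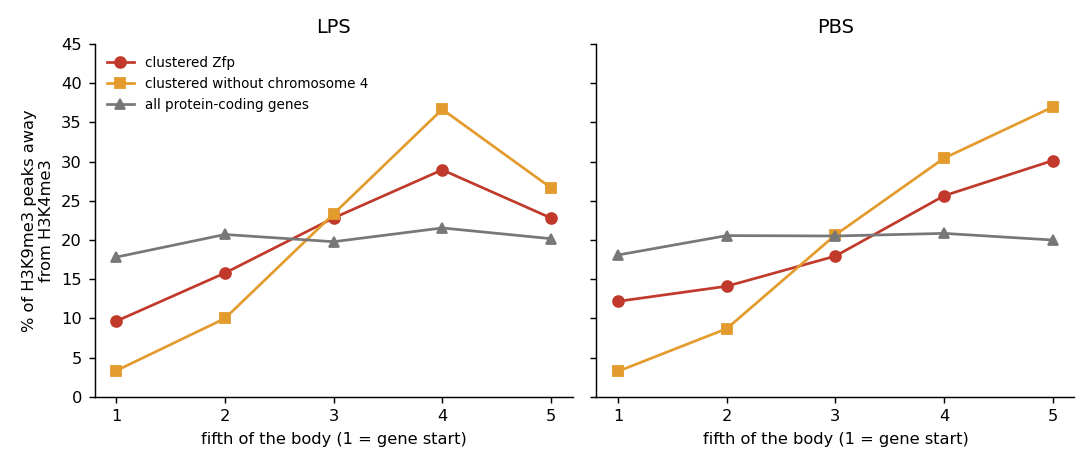
Share of H3K9me3 peaks away from H3K4me3 (y axis, percent) in each of 5 equal parts of the gene body from start to end (x axis), in LPS (left) and PBS (right), for clustered Zfp genes, the same without chromosome 4, and all protein-coding genes. In the first part clustered genes have 9.65% in LPS and 12.2% in PBS, against 17.8% and 18.1% of all genes.

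Members with both marks were common. H3K4me3 at an end and H3K9me3 on the body occurred together in 74 members in LPS (32.7%) and 88 in PBS (38.9%), beside 69 and 70 of 168 solitary genes and 21.4% of all genes in LPS and 19.1% in PBS. H3K9me3 was listed on 111 of the 194 members with H3K4me3 in either library (57.2%) and on 18 of the 32 without (56.3%), whereas over all genes the shares were 43.9% and 18.8%.

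At the marked end itself the marks met less often. H3K9me3 reached within 1 kb of the H3K4me3-marked end in 26 of 191 members in LPS (13.6%) and 14 of 190 in PBS (7.37%), against 31 of 139 and 29 of 143 solitary genes and 20.8% and 15.5% of all genes. After Zfp579, the most H3K9me3 tags there were at Zfp978 (89 in LPS, 98 in PBS) and Zfp992 (54 and 80). Zfp991 (28 in LPS, 64 in PBS), Zfp985 (42 and 44) and Zfp869 (21 and 20) also had both libraries. Zfp982 (48 tags) and Zfp853 (43 tags) had it in LPS alone.

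Genes that work with KRAB zinc finger proteins had H3K4me3 nearer the general shift. Of 23 listed, 2, Dnmt1 and Tasor, had no peak within 1 kb of an end in either library. A promoter further inside a gene would be missed. The other 21 were marked in both libraries, and 7 of the 21 lay below the median of all promoters. Their median log2 ratio was -0.29, from -0.92 at Mphosph8, a subunit of the HUSH silencing complex, to 0.17 at the deacetylase gene Hdac1. Trim28 had 500 tags in LPS and 714 in PBS (-0.36), and Setdb1 had 234 and 338 (-0.38). Of 31 KRAB or SCAN zinc finger genes with other names, 21 were marked in both libraries, with a median of -0.43.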

How the data were processed

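H3K4me3 and H3K9me3 ChIP-seq peak lists of 4 libraries were used. Tools named in the submitters' processing notes are Bowtie 0.12.8 and CASAVA 1.4, with MACS 1.4.2 and DiffBind, on the build mm10. Peaks were called by MACS in each library on its own without a control, per the file headers, at a p-value of 1e-05, keeping at most 1 tag per position. Each deposited list gives the count of tags per peak. The deposited score is minus 10 times the base 10 logarithm of the authors' p-value, and was used only to filter peaks. The deposited fold, the caller's ratio of a peak to its background, was not compared between libraries. A gene without a listed peak is not shown to lack the mark.

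Genes came from RefSeq (GRCm38.p6). For H3K4me3 the gene end with more tags within 1 kb was used, and for H3K9me3 every peak sharing at least 1 bp with the body. Ratios are log2 of LPS over PBS tags per filtered tag, counted as 2-fold only at 100 tags or more over both libraries. Intervals are 95%. Those of single ratios and sums are exact Clopper-Pearson and cover counting error only. Those of medians come from ranked genes and give the uncertainty of the median with genes taken as independent. Scripts used Python 3.11.15, pandas 2.3.3 and scipy 1.17.1, were tested on simulated data, and overlaps were checked with bedtools 2.31.1. Named genes were the 8 highest and 8 lowest H3K4me3 ratios among members with at least 100 tags over both libraries, the 10 with most H3K9me3, the 4 with most tags in 1 library only, the extremes of the 3 largest clusters, and up to 8 with H3K9me3 at the H3K4me3-marked end. Members and lists were chosen with earlier results of these data known. Protein features were not analysed here, and 1 marker list is not reported here.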

Additional observations from a re-analysis of the deposited data

How the results depend on the processing

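Of 173 alternative values, 151 stayed close to those reported and 22 moved. Only the median log2 ratios and the differences between medians could change sign, and 0 of them did. Shares, counts and tags per kb cannot be negative, so for them sign was not a test. Many alternatives left out a single chromosome, some with only 3 members, and these could hardly move. Close was also a broad label: members with both marks in LPS went from 74 to 106 with bodies extended by 10 kb, and this counted as close. A window of 2.5 kb gave H3K4me3 at 91.6% of members in LPS and 91.2% in PBS. Tags per covered kb gave a median H3K4me3 ratio of -0.30 and 0 members 2-fold lower, and setting the median promoter to 0 gave -0.14 and 1. H3K9me3 peaks of score 100 or more marked 9.73% of members in LPS and 14.6% in PBS, with both marks in 16 and 23, H3K9me3 in 1 library alone in 7 (LPS, 3.98% of all genes) and 18 (PBS, 2.86% of all genes), and 0.651 and 1.05 tags per kb (solitary 0.126 and 0.136). Bodies extended by 10 kb gave 54.0% in LPS and 60.2% in PBS, and gene lengths weighted as in solitary genes 44.9% and 53.8%. Without chromosome 4, H3K9me3 came to 0.793 tags per kb in LPS and 0.9999 in PBS. The cause of these moves was not tested, beyond the fewer or wider peaks and bodies that each alternative sets. Without chromosome 13, which held 11 of the 45 members marked in PBS only, 21 were marked in LPS only and 34 in PBS only, an alternative chosen after seeing the data. No paired analysis was possible because each group has 1 library. Peaks near the caller's minimum of 11 to 17 tags limit every count of members listed in 1 library.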
